A study of Drosophila melanogaster with 16 samples.

Results

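The genes examined here encode the central apoptosis machinery of Drosophila melanogaster: rpr, hid, grim, Diap1, Dronc, Drice, Dcp-1, Dark and Dredd. They were picked by name, and a gene counted as measured when the platform's probe table gave it a probe set that names no other gene. Of the 9 genes, 5 were measured (grim, Dronc, Dredd, Dcp-1 and Dark) by 6 of the 18769 probe sets analysed, which name 11981 genes in all. The head involution defective gene hid, reaper (rpr), Diap1 and Drice were not analysed here.

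Apoptosis in flies is held back by Diap1, which binds caspases and keeps them inactive. Rpr, Hid and Grim bind Diap1 and lift that block, and Dark then assembles with the initiator caspase Dronc into a complex that activates the effector caspases Drice and Dcp-1. At the end of larval life pulses of the steroid hormone ecdysone set off the death of larval tissues such as the salivary glands, and rpr, hid, Dronc and Dark are among the genes known to be switched on there.

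RNA of whole larvae was hybridised to Affymetrix Drosophila Genome 2.0 arrays, with 1 pool of 10 larvae for each array. Larvae of the Ama-KTT/M/2 stock kept on food with α-amanitin, here called toxin-fed, gave 6 pools. Those of the same stock raised without the toxin, here called untreated, gave 5, and Canton-S larvae raised without it gave 5. Canton-S was not given the toxin, so every comparison of α-amanitin with non-toxic food is within Ama-KTT/M/2. α-Amanitin is a mushroom toxin that inhibits RNA polymerase II, and its dose was 1.5 per g of food, stated in μg by the study's methods and in mg by the labels. The study places this dose slightly below the median lethal concentration of Ama-KTT/M/2, which it also gives in μg per g, so μg is the unit that matches. The sample titles call the dose the median lethal concentration. Some larvae died in the tubes before collection, per the study, so the pools hold survivors. Ama-KTT/M/2 is a resistant stock from Taiwan made isogenic for chromosomes 2 and 3 but not for the X chromosome, on which Dredd lies, and Canton-S is a sensitive laboratory wild type. All larvae, in the third instar and nearly full-grown but still feeding, were collected on 1 morning, from tubes started over several days, and α-amanitin slowed growth. Resistance and the other genetic differences between the stocks cannot be told apart. Neither can a difference in developmental stage at collection, in whichever direction, and a response to the toxin.

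In genes that mark late third-instar age, untreated Ama-KTT/M/2 stood apart from Canton-S and from the toxin-fed pools other than pool 2. The summed intensity of 9 such genes (6 salivary glue genes and the fat body genes Lsp2, Fbp1 and Fbp2) lay between 2803 and 83504 in toxin-fed Ama-KTT/M/2, between 18.5 and 1232 in untreated Ama-KTT/M/2 and between 14366 and 53638 in Canton-S. The lowest toxin-fed sum, in pool 2, was nearly all Lsp2 (2774). By the mean of log2(intensity + 16) over the 9 genes, that pool had 5.04, near the untreated pools (4.16 to 4.91). The other toxin-fed pools had 11.3 to 13.1 and the Canton-S pools 7.70 to 11.8. In limma, 9 of the 9 were higher in toxin-fed than in untreated Ama-KTT/M/2, as were 21.0% of all genes. In untreated Ama-KTT/M/2 relative to Canton-S, 8 of 9 were lower, as were 20.3% of all genes. Between toxin-fed Ama-KTT/M/2 and Canton-S, 0 of 9 passed, against 34.9% of all genes. On each array 19.3% to 22.9% of probe sets fell under an intensity of 16, which was taken as the floor below which a value is only a bound. RNA came from whole larvae, so fewer cells of a type and less RNA in each cell cannot be told apart.

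Among the antagonists of Diap1, grim was the measured one. It stayed under the floor in all 16 pools, with intensities of 3.20 to 7.0 in toxin-fed Ama-KTT/M/2, 2.51 to 6.30 in untreated Ama-KTT/M/2 and 3.13 to 7.48 in Canton-S. No fold change is given for it. On chromosome arm 3L, grim lies beside rpr, with no protein-coding gene between them in the Release 6 gene table, and rpr in turn lies beside skl, a further antagonist of this family that is described with the pathway genes.

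Dronc, the initiator caspase of the apoptosome, was, of the members above the floor by their brighter probe set, the one that varied most between pools on α-amanitin. Its lowest, median and highest intensities there were 87.8, 121 and 154. On non-toxic food, Dronc measured 124, 124, 105, 101 and 101 in the Ama-KTT/M/2 pools. In the Canton-S pools, Dronc measured 104, 119, 102, 100.5 and 116. The pools of all groups overlapped, and the pools on α-amanitin held both the lowest and the highest of the 16 values. The means were 120 ± 23.0 (SD, n = 6) in toxin-fed Ama-KTT/M/2, 111 ± 11.9 (SD, n = 5) in untreated Ama-KTT/M/2 and 108 ± 8.41 (SD, n = 5) in Canton-S. The log2 fold change was 0.09 in toxin-fed against untreated Ama-KTT/M/2 (SE 0.10, limma adjusted p = 0.537), 0.03 in untreated Ama-KTT/M/2 against Canton-S (SE 0.11, adjusted p = 0.838) and 0.12 on α-amanitin against Canton-S (SE 0.10, adjusted p = 0.405). No neighbouring pair of group levels passed the test, and the direction of the difference between stocks on non-toxic food turned when pool 1 or pool 2 of untreated Ama-KTT/M/2 was left out (log2 −0.00336 and −0.00473).

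Dredd, an initiator caspase best known for cleaving the NF-κB factor Relish in the Imd immune pathway, was higher in Ama-KTT/M/2 relative to Canton-S. Its lowest, median and highest intensities on α-amanitin were 370.4, 415 and 423. The untreated Ama-KTT/M/2 pools had 352, 379, 383, 404 and 379. The Canton-S pools had 359, 338, 333, 351 and 321. Every pool on α-amanitin lay above every Canton-S pool, whereas 1 pool of untreated Ama-KTT/M/2 lay within the Canton-S range. The means were 405 ± 21.7 (SD, n = 6) in toxin-fed Ama-KTT/M/2, 379 ± 18.5 (SD, n = 5) in untreated Ama-KTT/M/2 and 340.4 ± 14.7 (SD, n = 5) in Canton-S. Dredd was 1.18-fold higher in toxin-fed Ama-KTT/M/2 relative to Canton-S (log2 fold change 0.24, SE 0.05, limma adjusted p = 0.00181). It was 1.11-fold higher in untreated Ama-KTT/M/2 relative to Canton-S (log2 0.15, SE 0.05, limma adjusted p = 0.0323). Within Ama-KTT/M/2, the level on α-amanitin and that on non-toxic food did not differ past the threshold (log2 0.09, 95% interval −0.02 to 0.20, limma adjusted p = 0.192). The call between stocks on non-toxic food did not hold when any 1 of 6 pools was left out (pools 3, 4 and 5 of untreated Ama-KTT/M/2 and pools 2, 3 and 5 of Canton-S, adjusted p up to 0.0836), and after a further quantile normalization that log2 fold change was 0.05 (adjusted p = 0.460). The rank product test called Dredd in neither comparison with Canton-S (adjusted p = 0.782 toxin-fed and 1 untreated).

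Dcp-1, an effector caspase that cuts cellular proteins once activated, showed the largest difference among the measured members. Its lowest, median and highest intensities in toxin-fed Ama-KTT/M/2 were 195, 217 and 227. Untreated Ama-KTT/M/2 had 226, 237, 233, 220.3 and 239.97. Canton-S had 167, 188, 148, 166 and 174. All 11 pools of Ama-KTT/M/2 lay above all 5 pools of Canton-S, and the 2 Ama-KTT/M/2 groups overlapped. The means were 215 ± 11.8 (SD, n = 6) on α-amanitin, 231 ± 8.19 (SD, n = 5) in untreated Ama-KTT/M/2 and 168 ± 14.5 (SD, n = 5) in Canton-S. Dcp-1 was 1.34-fold higher in untreated Ama-KTT/M/2 relative to Canton-S (log2 0.43, SE 0.06, limma adjusted p = 2.17e-05) and 1.26-fold higher in toxin-fed Ama-KTT/M/2 relative to Canton-S (log2 0.33, SE 0.06, limma adjusted p = 0.000312). Between α-amanitin and non-toxic food in Ama-KTT/M/2, the log2 fold change was −0.10 (95% interval −0.22 to 0.02, limma adjusted p = 0.201). The change of Dcp-1 was larger in size than that of 77.5% of all probe sets for untreated Ama-KTT/M/2 against Canton-S and of 79.1% for toxin-fed Ama-KTT/M/2 against Canton-S. The rank product test, as run here with 100 permutations, called neither difference (adjusted p = 0.294 and 0.403). The study's methods also used a rank product test, but the run here is not the study's own. For untreated Ama-KTT/M/2 against Canton-S, the study listed smaller folds of Mdr49 and Mdr65 with corrected p-values under its threshold. The result here therefore does not show how the study's own test ranked Dcp-1.

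The summed intensity of the cell cycle markers PCNA and CycB was 1200 to 1438 in toxin-fed Ama-KTT/M/2, 1371 to 1466 in untreated Ama-KTT/M/2 and 857 to 1065 in Canton-S, so it followed the same order of groups as Dcp-1. PCNA, a clamp of DNA replication, had that order itself (means of 1118 toxin-fed, 1280 untreated and 773 in Canton-S), and the mitotic cyclin CycB did not follow it (means of 205 toxin-fed, 131 untreated and 180.2 in Canton-S). The part of these markers in the difference of Dcp-1 was not tested.

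Dark, the fly counterpart of Apaf-1 and the adaptor on which Dronc is activated, had a pair of probe sets. The brighter one measured 91.8, 97.2 and 108 (lowest, median and highest) on α-amanitin, 80.8 to 106 in untreated Ama-KTT/M/2 and 76.2 to 97.6 in Canton-S, with all groups overlapping. Its log2 fold change was 0.04 on α-amanitin against non-toxic food (SE 0.07, limma adjusted p = 0.682), 0.08 in untreated Ama-KTT/M/2 against Canton-S (SE 0.07, adjusted p = 0.386) and 0.13 on α-amanitin against Canton-S (SE 0.07, adjusted p = 0.194). The dimmer probe set straddled the floor. It ranged over 6.96 to 36.7 on α-amanitin, 0.00583 to 42.04 in untreated Ama-KTT/M/2 and 7.42 to 24.5 in Canton-S, and passed the limma test in no comparison. In untreated Ama-KTT/M/2 a single pool, replicate 2, carried the value of 42.04, while the others were at 6.08 or less. Without that pool the dimmer probe set passed the test as higher on α-amanitin than on non-toxic food (limma adjusted p = 0.00230), with the mean on non-toxic food below the floor and no fold given. It then also passed as lower in untreated Ama-KTT/M/2 relative to Canton-S (adjusted p = 0.0127), where both means are under the floor.

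**Figure D1:**
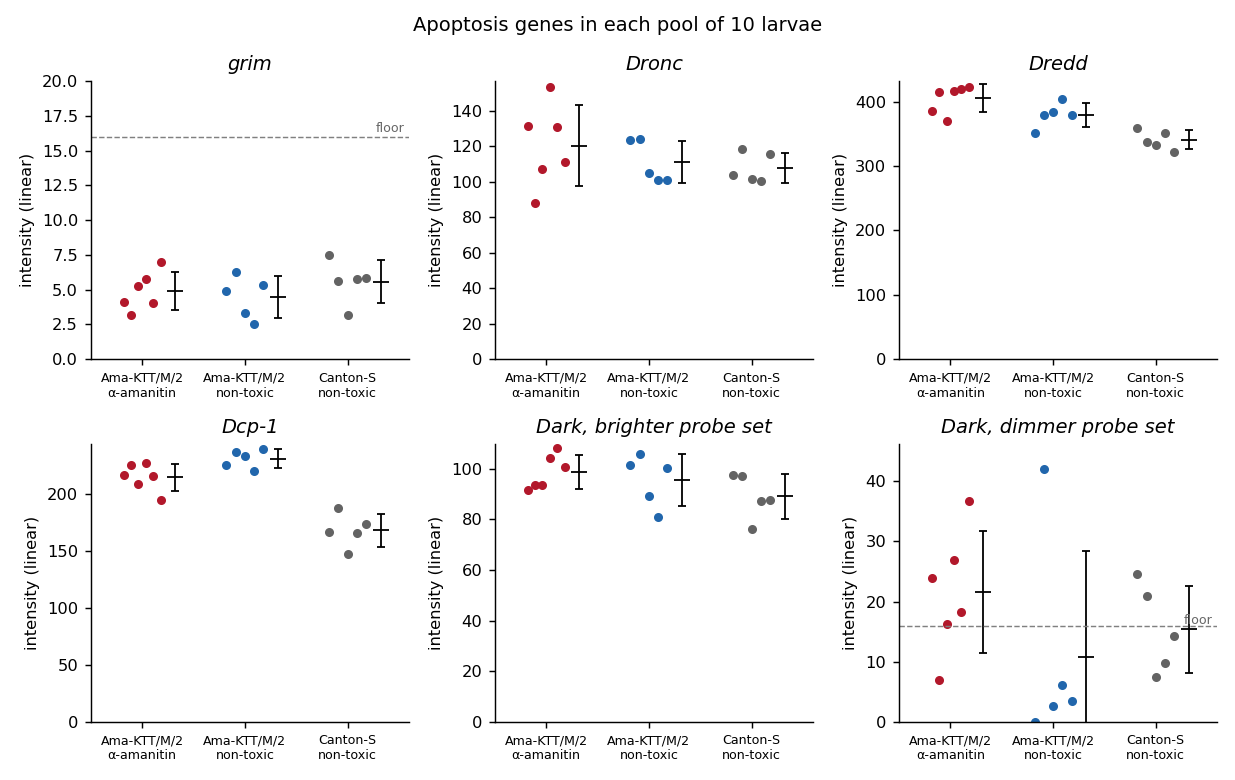
Intensity (linear) of each probe set of the measured apoptosis genes in every pool of 10 larvae, with the mean and SD of each group to the right of its points and the floor of 16 as a dashed line where it falls in range (the SD bar of the dimmer Dark probe set is cut at 0). All 11 Ama-KTT/M/2 pools lie above the Canton-S pools for Dcp-1, and grim lies under the floor throughout.

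Counted as genes, 2 of the 5 measured members were higher and 0 lower in untreated Ama-KTT/M/2 relative to Canton-S (Dcp-1 and Dredd, limma, adjusted p under 0.05). Of all genes, 49.0% passed that test in either direction and 28.7% were higher. The same 2 members were higher in toxin-fed Ama-KTT/M/2 relative to Canton-S, where 34.9% of all genes passed and 22.8% were higher. Both comparisons share the Canton-S pools. In toxin-fed against untreated Ama-KTT/M/2, 0 of 5 members passed in limma, against 40.6% of all genes, and 0 did so at an unadjusted p under 0.05 or in the rank product test, each member being counted by its brightest probe set. The dimmer probe set of Dark had an unadjusted p of 0.0440 there (limma adjusted p = 0.104), and the rank product test called it (adjusted p = 0.0167). With both groups above the floor, groups did not overlap for 1 member (Dcp-1) in untreated Ama-KTT/M/2 against Canton-S, where 37.4% of all genes did not overlap, and for 2 members (Dcp-1 and Dredd) on α-amanitin against Canton-S, where the share was 21.6%. For toxin-fed against untreated Ama-KTT/M/2 the groups of all of them overlapped, while those of 26.8% of all genes did not. These shares of genes without overlap include genes under the floor.

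The median log2 fold change of the 5 members was 0.08 in untreated Ama-KTT/M/2 against Canton-S, 0.04 on α-amanitin against non-toxic food and 0.13 on α-amanitin against Canton-S. The medians over all genes were 0.02, 0.02 and 0.07. No member reached the 2-fold limit that the study used, which 7.12%, 3.83% and 3.77% of all genes passed in these comparisons. For Dronc, Dredd, Dcp-1 and the brighter probe set of Dark, the 95% intervals of all 12 fold changes lay between 0.859-fold and 1.47-fold. These folds are on the scale of log2(intensity + 16), which understates changes of dim genes.

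**Figure D2:**
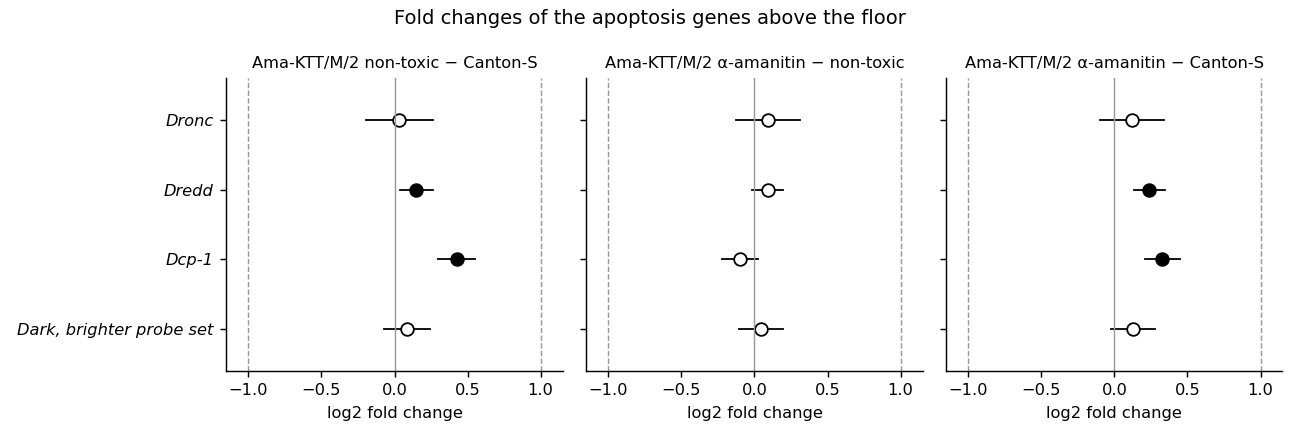
Log2 fold change (dot) with its 95% interval (line) of the 4 members above the floor in the 3 comparisons. Filled dots passed limma at an adjusted p under 0.05, and dashed lines mark a 2-fold change, which no interval reaches.

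The lowest and the highest Dronc values of the toxin-fed pools fell in the pools with the lowest and the highest levels of the late third-instar genes. Pool 2 had the lowest Dronc (87.8) and the lowest mean log2 level of the 9 stage genes among the pools on α-amanitin (5.04), as well as the lowest EcR (214) and br (322). Pool 4 had the highest of each, with 154 for Dronc, 13.1 for the stage genes, 609 for EcR and 1075 for br. The pools between these did not follow that order. Pools 1 and 5 had stage levels of 11.3 and 12.0 with Dronc at 131 in each. Pools 3 and 6 had higher stage levels of 12.3 and 12.8 with lower Dronc, at 107 and 111. EcR encodes the ecdysone receptor and br a transcription factor that ecdysone induces early. Across groups the levels did not go together, since the untreated Ama-KTT/M/2 pools had stage levels of 4.16 to 4.91 with Dronc at 101 to 124, and the Canton-S pools had stage levels of 7.70 to 11.8 with Dronc at 100.5 to 119. The part of larval age in the Dronc levels was not tested.

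**Figure D3:**
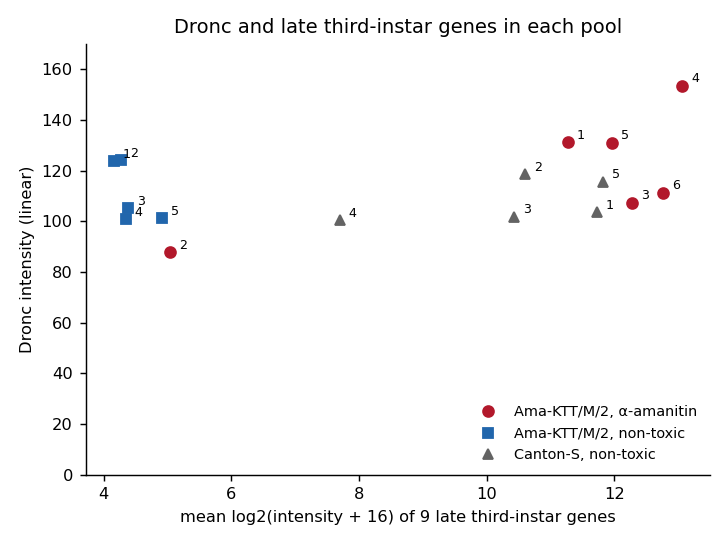
Intensity (linear) of Dronc against the mean log2(intensity + 16) of the 9 late third-instar genes, 1 point for each pool with its replicate number. Pool 4 on α-amanitin stands highest and pool 2 lowest in Dronc, while the pools on non-toxic food lie between 100.5 and 124 at every stage level.

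The other parts of the death machinery had calls in both directions, in shares near those of all genes. Of 18 further genes, 14 were measured. In toxin-fed against untreated Ama-KTT/M/2, 4 were higher (Damm, skl, Fadd and Cul3), 2 were lower (Buffy and HtrA2) and 8 did not pass. In untreated Ama-KTT/M/2 against Canton-S, 3 were higher (Buffy, HtrA2 and Debcl), 3 were lower (skl, Strica and Drep1) and 8 did not pass. On α-amanitin against Canton-S, 2 were higher (Damm and Cul3) and 2 lower (Strica and Drep1). Drep1 is counted as lower although its means were under the floor in all groups, where a value is only a bound. In these comparisons 40.6%, 49.0% and 34.9% of all genes passed in either direction. The shares higher were 21.0%, 28.7% and 22.8%, and those lower were 19.6%, 20.3% and 12.1%. The median log2 fold change of the list was 0.12, −0.08 and 0.07.

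Damm, a caspase of less settled role, was the gene of this list that changed most on α-amanitin. Its lowest, median and highest intensities there were 608, 745 and 1201. Untreated Ama-KTT/M/2 had 439, 397, 546.5, 493 and 500.1, and Canton-S had 459, 456, 388, 553 and 414. Every pool on α-amanitin lay above every pool on non-toxic food. Damm was 1.61-fold higher on α-amanitin than on non-toxic food in Ama-KTT/M/2 (log2 0.69, SE 0.14, limma adjusted p = 0.00145) and 1.69-fold higher than in Canton-S (log2 0.75, SE 0.14, adjusted p = 0.000618). The rank product test called both changes of Damm. Of the 31 changes of pathway genes that were followed under other settings, each past the threshold in limma, that test called 8, all of Damm, crq, EcR or br, and did not call 23.

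The caspase Strica was lower in both Ama-KTT/M/2 groups than in Canton-S. It averaged 279 ± 24.3 on α-amanitin (n = 6), 267 ± 20.2 in untreated Ama-KTT/M/2 (n = 5) and 349.6 ± 41.8 in Canton-S (n = 5, SD throughout), with log2 fold changes against Canton-S of −0.30 toxin-fed and −0.36 untreated (limma adjusted p = 0.00704 and 0.00181). The rank product test called neither for Strica (adjusted p = 0.289 and 0.344). Buffy, a Bcl-2 family protein known for protecting cells, averaged 92.6 ± 6.97 in toxin-fed and 113 ± 11.3 in untreated Ama-KTT/M/2, and 82.0 ± 8.17 in Canton-S. It was lower on α-amanitin than on non-toxic food (log2 −0.25, limma adjusted p = 0.0111) and higher in untreated Ama-KTT/M/2 relative to Canton-S (log2 0.40, adjusted p = 0.000291), and the rank product test called neither (adjusted p = 0.569 and 0.391). The antagonist skl averaged 32.8 ± 6.11 in toxin-fed and 22.6 ± 5.88 in untreated Ama-KTT/M/2, and 37.2 ± 4.58 in Canton-S. It was lower in untreated Ama-KTT/M/2 relative to Canton-S (log2 −0.48, limma adjusted p = 0.00246). Its increase on α-amanitin (log2 0.35, adjusted p = 0.0200) did not hold without pool 1 of untreated Ama-KTT/M/2 (adjusted p = 0.0561), nor after a further quantile normalization or in the rank product test (adjusted p = 0.0561 and 0.322).

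Drep1, an inhibitor of the DNA-cutting nuclease, had means under the floor in all groups and is given no fold. Fadd, the adaptor that brings Dredd to the Imd receptor complex, was 1.16-fold higher on α-amanitin than on non-toxic food (limma adjusted p = 0.0289), a call that was lost without pool 2 or 3 of untreated or pool 4 or 5 of toxin-fed Ama-KTT/M/2 (adjusted p up to 0.0837). Its means were 107 on α-amanitin, 90.2 in untreated Ama-KTT/M/2 and 94.4 in Canton-S. The 2 probe sets of the ubiquitin ligase subunit Cul3 disagreed on α-amanitin against non-toxic food, with log2 fold changes of 0.19 and −0.49 (limma adjusted p = 0.0353 and 0.00669). On α-amanitin against Canton-S they had 0.27 and −0.25 (adjusted p = 0.00451 and 0.140), and the mean of both had 0.00912 (adjusted p = 0.923), so the direction of Cul3 is uncertain in both comparisons.

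**Figure D4:**
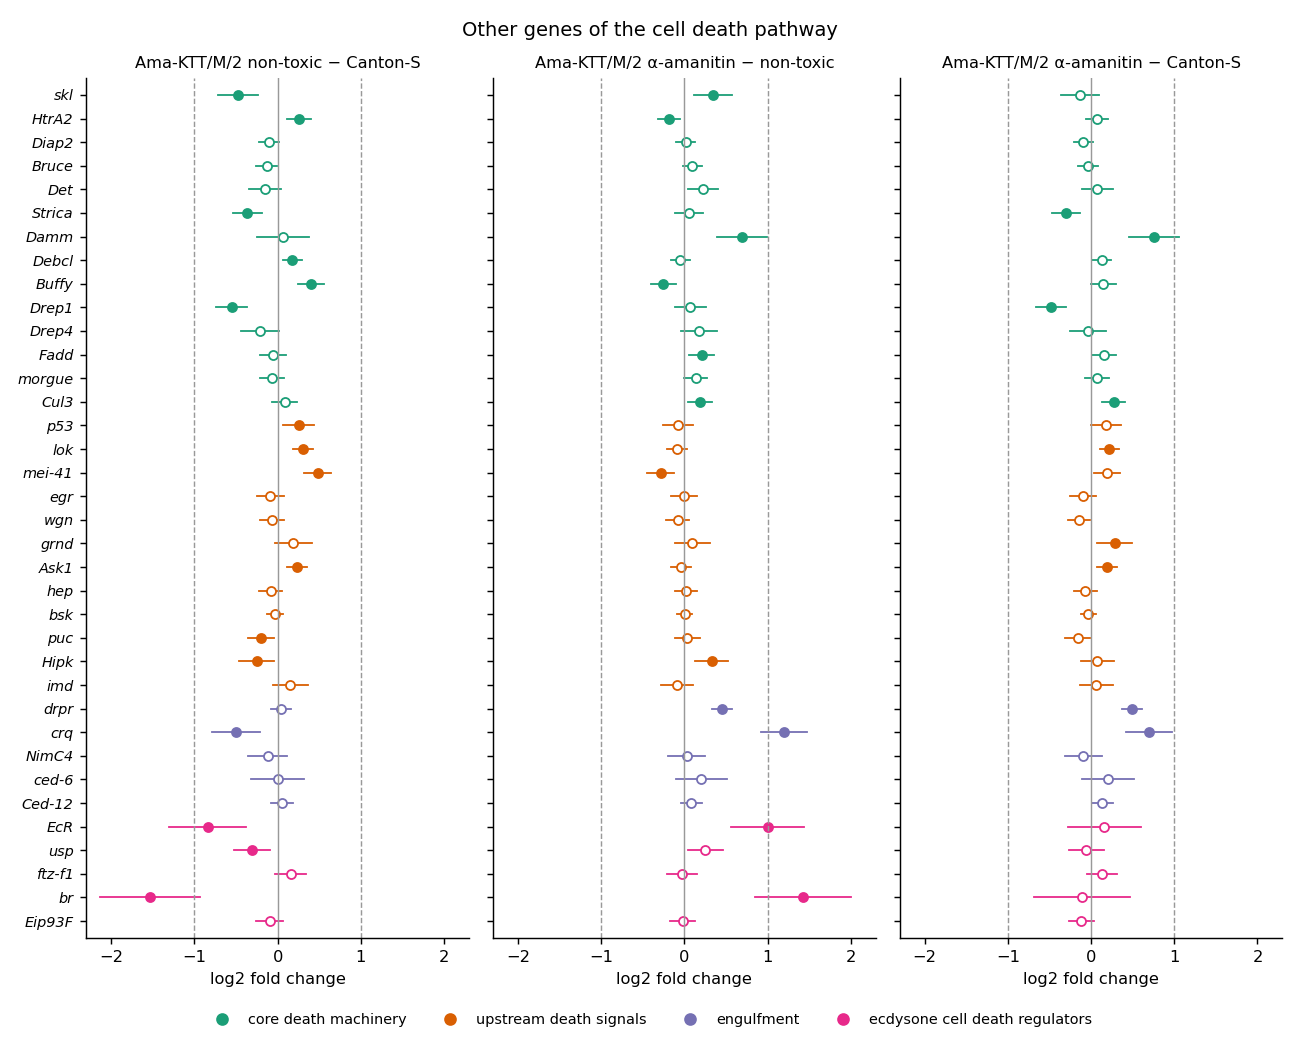
Log2 fold change (dot) with 95% interval (line) of each measured pathway gene (brightest probe set) in the 3 comparisons, coloured by list. Filled dots passed limma at an adjusted p under 0.05 and dashed lines mark 2-fold. EcR, br and crq pass 2-fold on α-amanitin against non-toxic food, EcR only just, at a log2 fold change of 1.00. Drep1 and Eip93F are drawn too, with means under the floor in all groups.

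Of 13 genes upstream of the apoptosis machinery, 12 were measured. Of all genes, 49.0% passed in untreated Ama-KTT/M/2 against Canton-S, 40.6% on α-amanitin against non-toxic food and 34.9% on α-amanitin against Canton-S. In untreated Ama-KTT/M/2 against Canton-S, 4 were higher (mei-41, lok, p53 and Ask1) and 2 lower (puc and Hipk). The call for Hipk, a kinase of several death and growth pathways, was near the threshold (log2 −0.25, limma adjusted p = 0.0454) and was lost without pools 1, 2 or 3 of untreated Ama-KTT/M/2, pool 5 of toxin-fed Ama-KTT/M/2 or pools 1 to 4 of Canton-S, each left out alone (adjusted p up to 0.118). The kinase mei-41, the fly ATR that senses DNA damage, averaged 57.1 ± 7.79 on α-amanitin (n = 6), 72.9 ± 7.26 in untreated Ama-KTT/M/2 (n = 5) and 47.6 ± 1.84 in Canton-S (n = 5). It was higher in untreated Ama-KTT/M/2 relative to Canton-S (log2 0.48, limma adjusted p = 9.45e-05) and lower on α-amanitin than on non-toxic food (log2 −0.29, adjusted p = 0.00720). The checkpoint kinase lok, the fly Chk2, had log2 fold changes against Canton-S of 0.22 on α-amanitin and 0.31 on non-toxic food (limma adjusted p = 0.00641 and 0.000467). For p53, the call (log2 0.26, limma adjusted p = 0.0264) was lost without pool 1, 2 or 3 of untreated Ama-KTT/M/2 or pool 5 of Canton-S (adjusted p up to 0.0736). The p53 call was also lost after a further quantile normalization (log2 0.14, limma adjusted p = 0.166) and as the mean of both p53 probe sets (adjusted p = 0.0930). The dimmer p53 probe set was under the floor in every pool. On α-amanitin against non-toxic food, Hipk was higher (log2 0.33, limma adjusted p = 0.0118), mei-41 was lower and 10 did not pass. Against Canton-S, grnd, lok and Ask1 were higher on α-amanitin and 0 of 12 were lower, and the call for the TNF receptor grnd (log2 0.29, adjusted p = 0.0374) was lost without pool 4, 5 or 6 of toxin-fed Ama-KTT/M/2 or pool 3, 4 or 5 of Canton-S (adjusted p up to 0.102). After a further quantile normalization or median scaling the calls for grnd (adjusted p = 0.122 and 0.127) and Ask1 (0.0900 and 0.103) were both lost. The medians of the list were 0.06 in untreated Ama-KTT/M/2 against Canton-S, −0.02 on α-amanitin against non-toxic food and 0.07 on α-amanitin against Canton-S.

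Among the genes that clear dead cells, crq was higher on α-amanitin than in either other group. All 5 on the list were measured, and the receptors crq and drpr were higher on α-amanitin in both comparisons. Among all genes, 21.0% were higher on α-amanitin against non-toxic food and 22.8% on α-amanitin against Canton-S. For crq, a CD36-family receptor of hemocytes, the lowest, median and highest intensities on α-amanitin were 725.5, 826 and 997. Untreated Ama-KTT/M/2 had 349, 275, 335, 429 and 432, and Canton-S had 644, 619, 423, 458 and 466. The pools on α-amanitin overlapped with neither other group. The fold was 2.29 on α-amanitin against non-toxic food (log2 1.195, SE 0.13, limma adjusted p = 6.67e-06) and 1.62 against Canton-S (log2 0.69, SE 0.13, adjusted p = 0.000629), and crq was lower in untreated Ama-KTT/M/2 relative to Canton-S (log2 −0.50, adjusted p = 0.00702). The rank product test called both changes on α-amanitin but not the difference on non-toxic food (adjusted p = 0.164).

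Draper (drpr), the receptor by which phagocytes and epithelial cells take up dying cells, averaged 1368 ± 54.5 on α-amanitin (n = 6), 995 ± 42.9 in untreated Ama-KTT/M/2 (n = 5) and 968 ± 80.6 in Canton-S (n = 5). On α-amanitin it was 1.37-fold higher than in untreated Ama-KTT/M/2 and 1.41-fold higher than in Canton-S (limma adjusted p = 2.08e-05 and 3.73e-06), with no overlap, but the rank product test called neither change of drpr (adjusted p = 0.0748 and 0.0762). NimC4, ced-6 and Ced-12 did not pass in any comparison. The summed hemocyte markers (Hml, NimC1, Pxn and eater) were 1994 to 2247 on α-amanitin, 1538 to 1743 in untreated Ama-KTT/M/2 and 2091 to 2490 in Canton-S. They were thus higher on α-amanitin than on non-toxic food in Ama-KTT/M/2, as crq and drpr were, but not above Canton-S. NimC1 went its own way, at 135 ± 12.5 on α-amanitin, 118 ± 11.2 in untreated Ama-KTT/M/2 and 25.3 ± 6.60 in Canton-S. The part of hemocyte number in crq and drpr was not tested.

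Of 8 ecdysone-regulated genes that control the death of larval tissues, 5 were measured. The shares of all genes that passed were 49.0% in untreated Ama-KTT/M/2 against Canton-S, 40.6% on α-amanitin against non-toxic food and 34.9% on α-amanitin against Canton-S. The nuclear receptor genes EcR and usp and the early gene br were lower in untreated Ama-KTT/M/2 relative to Canton-S, by 0.84, 0.31 and 1.54 on the log2 scale (limma adjusted p = 0.00465, 0.0220 and 0.000330). The call for usp was lost without pool 1 of untreated Ama-KTT/M/2 or pool 1 or 2 of Canton-S (adjusted p up to 0.0623). On α-amanitin against non-toxic food, EcR was higher by 1.00 and br by 1.42 (limma adjusted p = 0.00148 and 0.000811). That of EcR ranged over 0.85 to 1.14 with a pool left out and 0.85 to 1.06 in other settings, so it did not always reach 2-fold. The means of EcR and br were 373 ± 130.4 and 701 ± 251 on α-amanitin (n = 6), 172 ± 29.7 and 253 ± 111 in untreated Ama-KTT/M/2 (n = 5), and 326 ± 89.1 and 722 ± 121 in Canton-S (n = 5). Eip93F, a later factor of this cascade, was under the floor on average in all groups. None of the 5 passed on α-amanitin against Canton-S, so EcR and br passed the test in the same comparisons as most stage genes. Whether their difference is more than one of larval age was not tested.

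**Figure D5:**
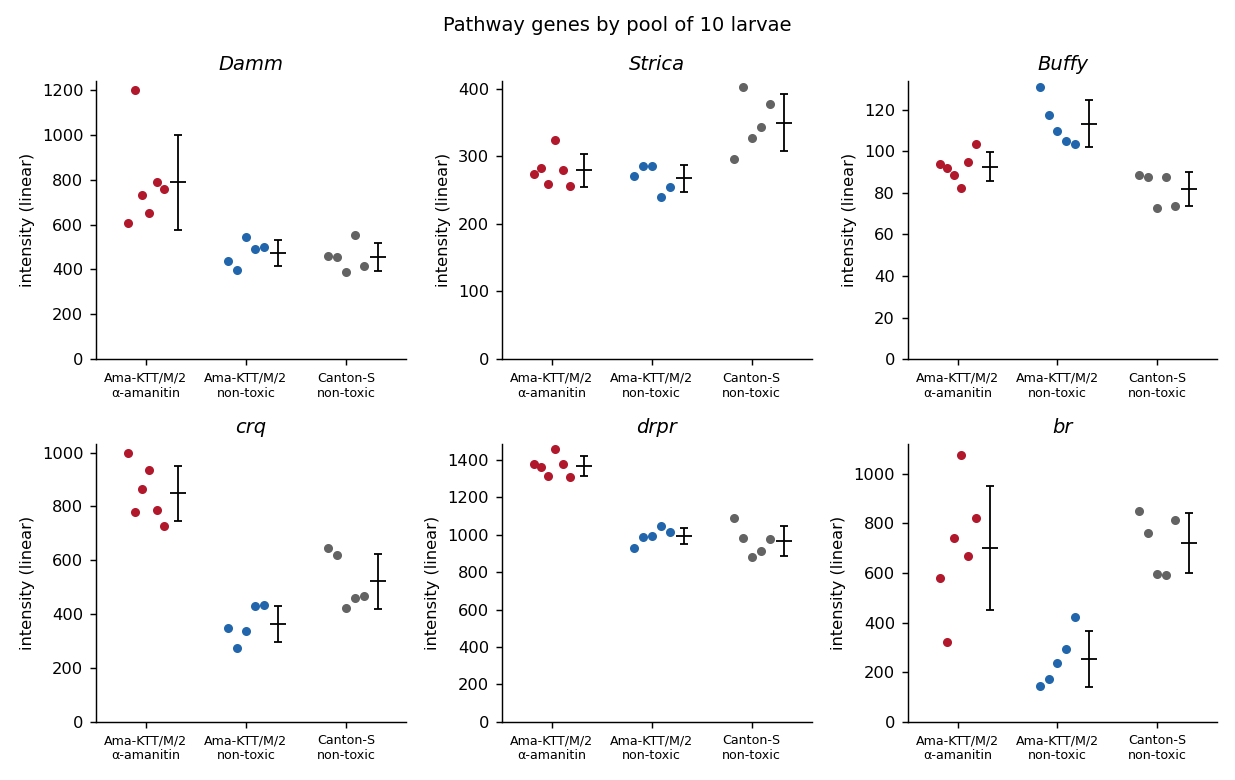
Intensity (linear) in each pool of the caspases Damm and Strica, the Bcl-2 gene Buffy, the engulfment receptors crq and drpr and the ecdysone gene br, with the mean and SD of each group beside its points. For Damm, crq and drpr the pools on α-amanitin lie above all others.

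The genes whose pattern was nearest to each member were sought among 8140 named genes with a group mean of at least 64, by the root mean square difference of centred log2 values over the 16 pools. For Dcp-1, whose own root mean square deviation was 0.193, these were strat (0.0746), Fnta (0.0766) and CG3520 (0.0793). For Dredd (0.117) they were CSN6 (0.0401), nac (0.0451) and baf (0.0473). For the brighter probe set of Dark (0.116) they were udt (0.0620), trx (0.0656) and kug (0.0741). For Dronc (0.1698) they were CG2061 (0.111), Tmem63 (0.113) and tefu (0.117), which left more of the Dronc pattern unmatched than for the other 3 members.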

How the data were processed

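Per the study's methods, array images were read with Affymetrix Expression Console 1.2, and PLIER with quantile normalization and mismatch adjustment gave the linear intensity values that the authors deposited. They were used without further normalization. Of 18952 probe sets, 183 controls were left out. In the platform's probe table, matched by gene identifier to the Release 6 gene table for names and chromosome arms only, 13646 probe sets had 1 gene, 402 several and 4721 none named here. No value column was without a sample (0 of 16), and no pair of arrays was identical. The brightest probe set stood for a gene.

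Values were taken as log2(intensity + 16) and fitted with limma 3.58.1 in R 4.3.3, with 16 pools in 3 groups and no covariate. Adjustment was by Benjamini-Hochberg across all probe sets of a comparison, and a probe set passed at an adjusted p under 0.05. The fit was tested on simulated data. Alternatives were another offset (1 or 64), a filter on dim probe sets, renormalization, the rank product test, a trended prior, fits of 2 groups, a replicate block, the mean of a gene's probe sets and leaving out each pool.

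Named were all members and, of each pathway list and comparison, genes past 2-fold and up to 4 others with the largest change among those that passed. The rest (HtrA2, Debcl, Ask1 in 1 comparison, puc, NimC4, ced-6, Ced-12, Eip93F and the marker genes) were named after their values were seen. The members and lists were chosen with earlier results of these data known. The labels call the pools biological replicates, but per the study's methods the larvae of each pool were drawn at random from across the tubes. The p-values reflect only how such pools of a stock vary, and not how separate rearings or exposures would. The number of arrays limits the precision.

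Summed intensities of other marker lists, for toxin-fed Ama-KTT/M/2, untreated Ama-KTT/M/2 and Canton-S in that order, were 265 to 328, 248 to 306 and 263 to 329 for neurons (2 of 3 genes), 468 to 583, 440.2 to 560.5 and 626 to 828 for imaginal discs (3 of 3), 23452 to 26780, 27004 to 30843 and 27052 to 32882 for midgut (3 of 3), and 261 to 435, 478 to 685 and 268 to 404 for muscle (1 of 2). No fat body Lsp1 gene was named.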

Additional observations from a re-analysis of the deposited data

Results flagged for a closer look

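Of 72 groups of pools tested for a value far from the rest, covering the members and the pathway genes named, 3 held one, and chance gives about 1 in 20. The dimmer probe set of Dark was at 42.04 in replicate 2 of untreated Ama-KTT/M/2, against at most 6.08 in the other pools of that group. Damm was at 1201 in replicate 2 of toxin-fed Ama-KTT/M/2, against at most 791 in the others, and without that pool its log2 fold change on α-amanitin was 0.56 against non-toxic food and 0.63 against Canton-S. The brighter probe set of Cul3 was at 220.3 in replicate 1 of untreated Ama-KTT/M/2, against at least 248 in the others.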

How the results depend on the processing

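The number of members higher in untreated Ama-KTT/M/2 relative to Canton-S was 2. It was 1 after a further quantile normalization, after scaling the arrays to a common median, with only the pools of the groups compared, and with the replicate number as a block, and 0 in the rank product test. With 1 pool left out at a time it was 1 to 2. Dredd was the gene lost where the count was 1 (limma adjusted p = 0.460, 0.107, 0.0517 and 0.0617, in that order of settings). The number higher on α-amanitin than in Canton-S was 2, or 0 in the rank product test, and 2 with any pool left out. Dcp-1 kept its calls against Canton-S in every setting except the rank product test, at log2 fold changes of 0.32 to 0.46 on non-toxic food and 0.25 to 0.36 on α-amanitin.

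Directions turned only for changes that passed no test. Dronc on non-toxic food against Canton-S was −0.0301 after a further quantile normalization and −0.00473 to 0.0622 with a pool left out. The brighter probe set of Dark was −0.145 in that comparison as a mean of both its probe sets, and −0.00668 to 0.0763 with a pool left out on α-amanitin against non-toxic food. There the fitted value of grim, which is under the floor in every pool and has no direction to read, was −0.0230 after a further quantile normalization and −0.00485 to 0.0622 with a pool left out. The rank product test called the dimmer probe set of Dark on α-amanitin against non-toxic food (adjusted p = 0.0167), a call that limma also made without replicate 2 of either Ama-KTT/M/2 group (adjusted p = 0.0485 without the toxin-fed pool). After a further quantile normalization the core death machinery had 7 genes lower in untreated Ama-KTT/M/2 relative to Canton-S, against 3, and the upstream list 2 higher and 6 lower, against 4 and 2. On α-amanitin against Canton-S the upstream list had 1 higher and 2 lower after either rescaling, against 3 and 0. On α-amanitin against non-toxic food the core list had 2 higher after median scaling, against 4. With an offset of 1 the upstream list had 1 lower on non-toxic food. The median log2 fold change of the core list was −0.17 in untreated Ama-KTT/M/2 against Canton-S after a further quantile normalization, against −0.08, and on α-amanitin against non-toxic food 0.08 after median scaling and 0.17 with an offset of 1, against 0.12. The upstream median of −0.02 on α-amanitin against non-toxic food was 0.01 after a further quantile normalization and −0.06 after median scaling. Of the 31 followed changes of pathway genes, the rank product test lost 23 (adjusted p = 0.0534 to 0.985), a further quantile normalization 4, median scaling 3 and the mean of a gene's probe sets 2.

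Replicate numbers are shared by the groups. Deviations of same-numbered pools had correlations of −0.417 to 0.271 (median 0.068, 15 pairs, 5 over 0.1). Pools of different groups and numbers had −0.531 to 0.343 (median −0.013, 70 pairs, 16 over 0.1). The ranges overlapped, and the numbers were not taken to pair the pools. With the block, Dredd kept its log2 fold change of 0.15 but not its call, as given above, and no other call of a member changed. Of the 31 followed changes of pathway genes, 5 lost their call with the block: skl and Fadd on α-amanitin against non-toxic food (adjusted p = 0.0518 and 0.0649), Hipk in untreated Ama-KTT/M/2 against Canton-S (0.0563), and grnd and Ask1 on α-amanitin against Canton-S (0.122 and 0.0544). Dim probe sets limit what can be said of grim, Drep1 and the dimmer probe set of Dark.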
